A study of Mus musculus with 10 samples.

Results

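RNA-seq of control mice compared 2 populations of bone marrow cells: LSK cells (lineage-negative, Sca1+, cKit+), the compartment of stem cells and early multipotent progenitors, and granulocyte-macrophage progenitors (GMP; lineage-negative, Sca1-, cKit+, CD34+, FcgR+), which give rise to neutrophils and monocytes. The comparison used 4 of the 10 libraries of the series, 2 of LSK (LSK-1326 and LSK-1330) and 2 of GMP (GMP-346 and GMP-350), named by population and the number in their titles. Genes were taken where both deposited count tables list them with at least 1 read among the 5 libraries of each table, which left 22461 of 38086 shared gene IDs. All 4 libraries came from C57BL/6 mice of 12 months that carried the floxed Dnmt3a alleles (Dnmt3a f/f) without Mx1-Cre and had received 5 injections of poly(I:C), an inducer of interferon, as the knockout mice had. The other 6 libraries, 3 of each population, came from Dnmt3a f/f Mx1-Cre+ mice, in which Cre is driven by the interferon-inducible Mx1 promoter. The controls are therefore floxed, injected and old rather than untreated, and nothing in the labels says whether each library is 1 animal or a pool, so p-values refer to the spread among the libraries alone.

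Blood formation passes from self-renewing stem cells through multipotent progenitors, some of them already biased to the lymphoid, erythroid or megakaryocyte lineages, to progenitors of restricted fate. Each step is set by combinations of transcription factors, and the surface receptors that a cell carries decide which cytokines and niche signals it can receive. Stem cells in the marrow are mostly quiescent and are known for low mitochondrial activity and for anaerobic glycolysis, whereas GMP divide fast and build the granule proteins, oxidase and antioxidant enzymes of phagocytes.

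GMP-346 and GMP-350 held 100433192 and 93850256 reads on genes, and LSK-1326 and LSK-1330 held 30028937 and 29817790. The first principal component of the 10 libraries held 83.8% of their variance and separated the populations, and the 2 control libraries of a population differed beyond sampling noise (chi-square per degree of freedom of 25.0 in LSK and 103 in GMP). Count table, list of annotated genes and depth went with the population in every library and cannot be told apart from it. Sex was not balanced between the populations: LSK-1326 and both GMP libraries had Y-linked reads, and LSK-1330 had Xist reads instead. Xist read 1183 CPM in LSK-1330 against 0.20 and 0.23 CPM in GMP-346 and GMP-350. For genes that differ by sex, sex and population therefore cannot be fully told apart. Dnmt3a, intact in controls, read 152 and 147 CPM (CPM, reads relative to the TMM-scaled library total) in LSK and 145 and 116 CPM in GMP. GMP-350 also held genes of mature cells at levels that GMP-346 did not have, with Ltf, a secondary granule protein of neutrophils, at 198 against 2.32 CPM and Cd74, the invariant chain of MHC class II, at 94.2 against 3.01 CPM. All 13 mitochondrially encoded protein-coding genes were at 0 in the LSK table, against 0.77% and 1.05% of reads in the 2 GMP libraries, and these genes are not compared here.

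The sorted populations carried the transcripts of their gates. Ly6a, which encodes Sca1, read 20.3 and 20.2 CPM in LSK and 1.05 and 0.94 CPM in GMP. Fcgr3, an Fc gamma receptor of the GMP gate, read 24.1 and 20.7 CPM in LSK and 419 and 413 CPM in GMP. Kit was present in both at 888 and 699 CPM in LSK and 236 and 232 CPM in GMP, and Cd34 at 921 and 757 against 500 and 432 CPM. These genes chose the cells, so their differences are a description. Of 15 stem cell markers, 15 were at least 2-fold higher in LSK, and of 16 primary granule genes, which mark granulocyte progenitors, 15 were at least 2-fold higher in GMP. Mpo, the myeloperoxidase of those granules, read 14928 and 11613 CPM in GMP but also 1355 and 1229 CPM in LSK. On the log2 scale, given throughout as LSK minus GMP, Mpo differed by -3.36 with a standard error (SE) of 0.20 (edgeR adjusted p = 9.15e-07).

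Differences were tested with edgeR's quasi-likelihood test over 18573 genes and called at a Benjamini-Hochberg adjusted p under 0.05. A total of 10200 genes (54.9%) were called, 5173 (27.9%) higher in LSK and 5027 (27.1%) higher in GMP. With a fold of at least 2 besides, 3944 genes (21.2%) were higher in LSK and 2024 (10.9%) higher in GMP, and all counts of list members below use this stricter call unless another is named. The median log2 fold change over all genes was 0.12. The split depended on the scaling: 66.1% of the 2-fold calls were higher in LSK with TMM, 76.3% with upper quartile factors and 82.0% with total counts, which moved the median of all genes to 0.33 and 0.51. In bulk RNA, fewer cells of a type and less RNA per cell cannot be told apart, which holds for each gene below.

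Among 118 transcription factors tested, 59 were at least 2-fold higher in LSK and 13 higher in GMP. Among 148 surface proteins the counts were 63 and 36, and among 365 metabolic genes 28 and 116. The listed factors were more often higher in LSK and the listed metabolic genes more often higher in GMP, beside backgrounds of 21.2% and 10.9% over all genes. These pooled counts depend on which lineages were listed: the myeloid factors alone had 5 higher in LSK and 13 in GMP. The list medians were 1.11, 0.42 and -0.68, beside 0.12 for all genes. The lists are groupings by known function, chosen with earlier results of these data known, and some genes are in several of them.

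**Figure D1:**
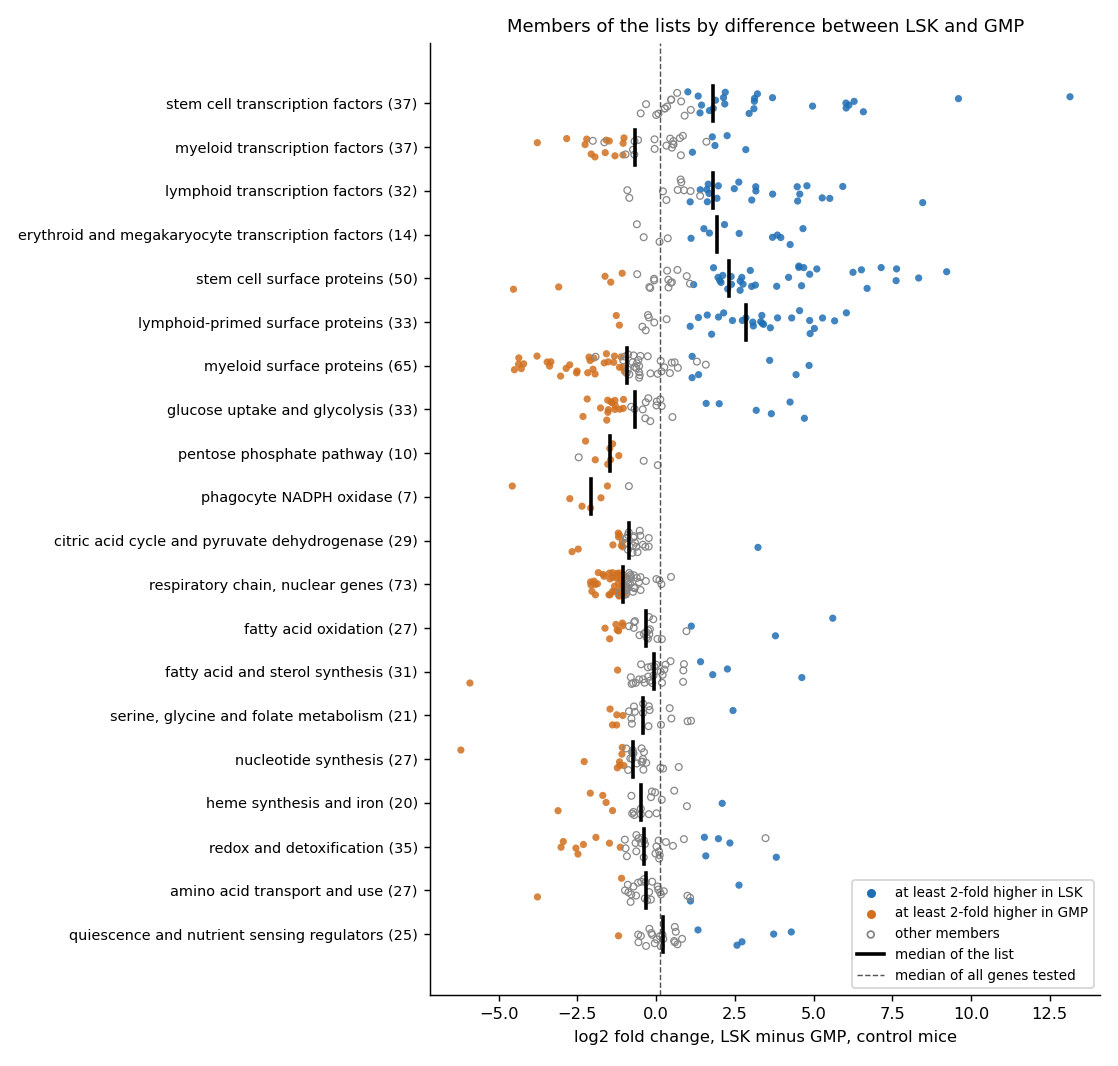
Log2 fold change (LSK minus GMP, horizontal axis) of each tested member of 20 lists, 1 row per list with the number tested in brackets. Filled points were called at least 2-fold higher in LSK (blue) or GMP (orange), open circles were not, black bars are list medians and the dashed line is the median of all genes, 0.12; stem, lymphoid and erythroid lists lie to the right and the oxidase and pentose phosphate lists to the left. The stem cell factors farthest to the right, Nkx2-3 and Hoxb5, had 0 reads in GMP, so their fitted positions depend on the prior count and are no measure of size.

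Stem cell transcription factors were mostly higher in LSK. Of 37 tested, 24 were at least 2-fold higher in LSK, 0 were at least 2-fold higher in GMP, and the median log2 fold change was 1.81. Hlf, a PAR-bZIP factor of stem cell maintenance, read 294 and 231 CPM in LSK and 8.33 and 8.44 CPM in GMP (log2 fold change 4.97, SE 0.20, edgeR adjusted p = 8.77e-08). Mecom, the zinc finger factor also known as Evi1, read 111 and 92.4 CPM in LSK and 1.64 and 1.45 CPM in GMP (6.04, SE 0.40). Meis1, a homeodomain partner of Hox proteins, read 268 and 249 CPM against 25.1 and 30.5 CPM (3.22, SE 0.14). In each of these 3 genes the lowest LSK library lay several-fold above the highest GMP library; over all genes, the control libraries of the populations did not overlap for 78.4%, and 41.7% had every LSK library above every GMP library.

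Some stem cell factors were close to the limit of detection in GMP. Nkx2-3, a homeobox gene, had 1225 reads in the 2 LSK libraries (19.9 and 16.8 CPM) and 0 in the 2 GMP libraries, so it was at least 1000-fold higher in LSK against a floor of 3 counts over the GMP group. Mycn, a Myc family member, read 57.3 and 55.0 CPM in LSK and 0.17 and 1.26 CPM in GMP, so that the GMP libraries differed from each other by more than 2-fold although both lay far below LSK. Hmga2, a chromatin protein of fetal and self-renewing cells, read 15.7 and 11.8 CPM against 0.15 and 0.27 CPM. Of the Hox genes in the list, Hoxa10 read 17.8 and 14.1 CPM in LSK against 0.36 and 0.10 CPM in GMP, while Hoxa9, which also acts in myeloid progenitors, kept 16.2 and 13.5 CPM in GMP against 68.3 and 67.6 CPM in LSK (2.20, SE 0.21). Tcf15, the last member of the list, was left out because it had 0 reads in all GMP libraries; it had 83 reads in the 2 LSK libraries.

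Several other factors of the list differed less than Hlf, Mecom and Meis1. Runx1 was higher in LSK by 0.48 on the log2 scale (SE 0.12, edgeR adjusted p = 0.00551), with 150 and 153 CPM against 96.1 and 121 CPM. Lmo2 and Tal1, partners in the stem cell GATA complex, differed by 1.0 and 1.69, Erg by 1.34, and Foxo3, a factor of quiescence and oxidative stress resistance, by 1.44. Fli1, which 4 genes listed in the LSK table alone overlap on its strand, was higher in GMP by a log2 fold change of -0.49 and Nfe2l2 (Nrf2) by -0.32; with total counts Fli1 no longer passed (-0.10, adjusted p = 0.26) and Nfe2l2 turned to 0.08. Nfe2l2 also failed to pass without LSK-1326 (adjusted p = 0.0546) or GMP-346 (adjusted p = 0.10). Lyl1, Ikzf2 and Bcl6 were not called. Gata2 read 133 and 137 CPM in LSK but 12.5 and 47.2 CPM in GMP, and its 2.18 (SE 0.53) carries the spread of the GMP libraries. GMP-350, the higher of them, also held more of the mast cell, basophil and eosinophil genes, whose 15 tested members summed to 1762 CPM in GMP-346 and 4766 CPM in GMP-350 against 177 and 164 CPM in LSK; none of the 15 was at 0 reads in GMP, and their part in the Gata2 level was not tested.

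Erythroid and megakaryocyte factors were higher in LSK too. Of 14 tested, 10 were at least 2-fold higher in LSK and 0 in GMP, and the median was 1.93. Zfpm1, which encodes the GATA cofactor FOG1, read 137 and 142 CPM in LSK and 5.62 and 5.40 CPM in GMP (4.67, SE 0.26). Gfi1b, a repressor of both lineages, read 42.5 and 60.8 CPM against 2.10 and 5.86 CPM, and Klf1, the erythroid Kruppel-like factor, 24.6 and 33.0 CPM against 0.95 and 2.75 CPM. LSK-1330 was the higher LSK library for Gfi1b, Klf1 and Gata1. Gata1 itself differed by 1.52 (SE 0.42), and without LSK-1330 it no longer passed (1.29, adjusted p = 0.0695). Markers of those lineages moved the same way: 13 of 15 erythroid and 11 of 14 megakaryocyte genes were at least 2-fold higher in LSK, the erythroid sum was 904 and 837 CPM in LSK against 30.3 and 55.8 CPM in GMP, and Gp6 alone among the megakaryocyte genes had 0 reads in GMP. Their part in the factors' difference was not tested. Srf was the 1 member called in the other direction (-0.61), and it did not pass with total counts (-0.21, adjusted p = 0.27) or without LSK-1326, LSK-1330 or GMP-346 (adjusted p of 0.0683, 0.0726 and 0.17).

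Lymphoid factors had a median of 1.81, with 22 of 32 at least 2-fold higher in LSK and 0 in GMP. They split by level. Factors that multipotent progenitors share stayed within a few-fold: Ikzf1, the Ikaros gene, differed by 0.80 (SE 0.15), Tcf3 by 0.68, Satb1 by 1.61 and Bcl11a by 1.63, and all 4 were well above detection in both populations. Factors of later lymphoid stages were low in LSK and nearly absent in GMP. Pax5, the B cell commitment factor, read 9.71 and 4.70 CPM in LSK and 0.04 and 0.20 CPM in GMP. Tox, a T cell and innate lymphoid factor, read 11.5 and 7.32 CPM against 0.0246 and 0.0244 CPM (8.47, SE 0.62), and Irf4 11.6 and 7.76 CPM against 0.11 and 0.59 CPM. Beside these, 12 of 15 B cell genes and 14 of 18 T and NK cell genes were at least 2-fold higher in LSK. The T and NK cell genes summed to 172 and 132 CPM in LSK against 515 and 430 CPM in GMP, most of it from Nkg7, a granule gene also in the primary granule list, which was higher in GMP (-2.19, with 513 and 425 CPM there). The B cell genes summed to 798 and 829 CPM in LSK against 158 and 193 CPM in GMP, none of them was at 0 reads, and Cd3e, at 0 reads in GMP together with Ncr1, read 0.0922 and 0.175 CPM in LSK. What part lymphoid cells in the sort have in these levels was not tested. Zbtb16 (-0.91) and Ets1 (-0.85) were higher in GMP; without LSK-1330 Ets1 no longer passed (-0.61, adjusted p = 0.0617), and neither passed with total counts.

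The myeloid factors were split. Of 37 tested, 13 were at least 2-fold higher in GMP, 5 were at least 2-fold higher in LSK, and the median was -0.69. Cebpe, which drives the later stages of granulocyte maturation, read 6.27 and 5.16 CPM in LSK and 84.5 and 71.7 CPM in GMP (-3.77, SE 0.28, edgeR adjusted p = 3.49e-06). Cebpa, the factor needed to form GMP, read 49.9 and 71.8 CPM in LSK and 246 and 263 CPM in GMP (-2.06, SE 0.17). Gfi1, the repressor that favours granulocytes, read 46.2 and 41.2 CPM against 171 and 165 CPM, and Irf8, which favours monocytes and dendritic cells, 87.4 and 127 CPM against 234 and 298 CPM. The populations did not overlap for any of these 4 genes, as was so for 36.6% of all genes on the GMP side. Beside them, 15 of 16 primary granule genes and 7 of 16 monocyte genes were at least 2-fold higher in GMP, the monocyte genes summing to 484 and 562 CPM in LSK and 2865 and 3427 CPM in GMP with no member at 0 reads; the macrophage genes C1qa (5.92) and C1qb (5.18) were the 2 of the 16 higher in LSK, at under 4 CPM. Of 16 secondary granule and mature neutrophil genes, 5 were at least 2-fold higher in GMP, 1 was higher in LSK (Padi4, 2.93) and 10 were not called. Their median was -1.49, and 1.4 without GMP-350. The part of these cells in the factors' difference was not tested.

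Spi1, encoding PU.1, fell just short of the 2-fold call at -0.97 (SE 0.15), from 76.6 and 73.5 CPM in LSK to 160 and 134 CPM in GMP, and Myb, a factor of proliferating progenitors, just passed it at -1.05 (SE 0.09). Per kilobase of exon both populations held Spi1 at like orders of magnitude, 27.8 RPKM (CPM divided by the exon length in kilobases) in LSK and 54.6 RPKM in GMP, whereas Cebpe stood at 4.61 and 63.0. The 5 members higher in LSK were the nuclear receptor genes Rxra (1.78), Rara (1.87) and Vdr (2.26), the bZIP gene Maf (2.85) and Junb (1.15). Maf did not pass without LSK-1326 (2.56, adjusted p = 0.0784) or without GMP-346 (2.04, adjusted p = 0.0729). Myc was higher in LSK by 0.55 (SE 0.14), 198 and 209 CPM against 146 and 132 CPM. Jun (-1.64) and Fos (-2.01) were not called, because GMP-346 and GMP-350 stood at 7.05 and 125 CPM for Jun and at 9.89 and 61.0 CPM for Fos.

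**Figure D2:**
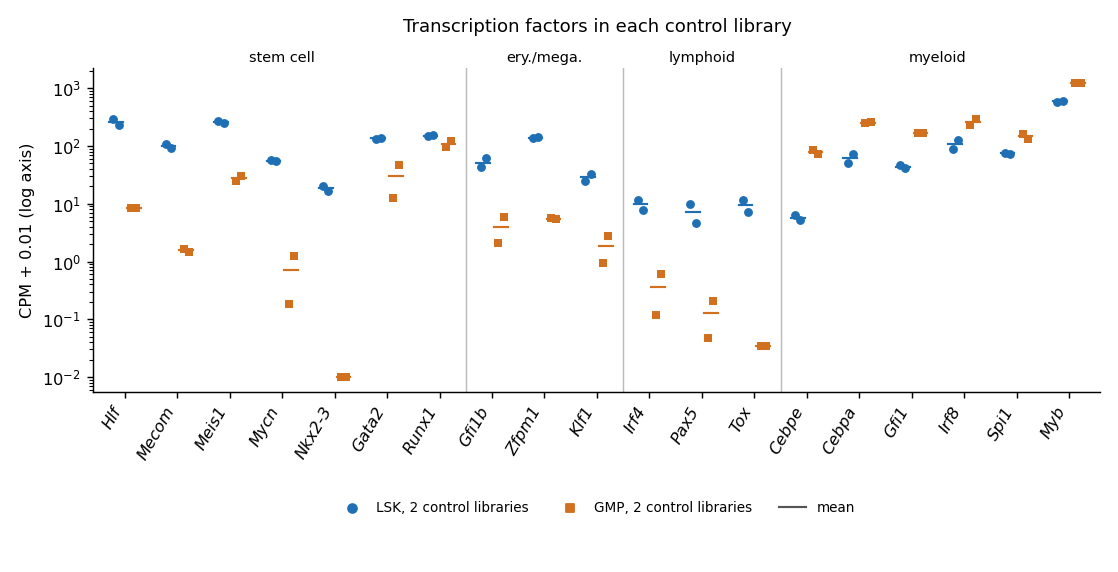
CPM plus 0.01 (vertical log axis) of 19 transcription factors in the 2 LSK (blue circles) and 2 GMP (orange squares) control libraries, with a bar at each mean, grouped by list. Hlf, Mecom and Meis1 lie far above GMP, Nkx2-3 is at 0 in both GMP libraries, and the myeloid factors from Cebpe (-3.77) to Myb (-1.05) lie higher in GMP.

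The promoters of 2 primary granule genes and 2 stem cell factors are shown because these genes mark the 2 ends of the comparison. Each is the 250 bases before the start site in RefSeq (GRCm38.p6), 5′ to 3′ on the gene's strand; capitals mark matches on either strand to short words that stand for known factors. The word for PU.1 was GAGGAA. The word for the C/EBP family was TTNCNNAA. The RUNX word was TGTGGT, and the word for GATA factors was AGATAA. The word for MYB was TAACNG. No 2 matches overlapped in these windows. The windows are chr11:87793534-87793783 (plus strand) for Mpo, chr10:79886062-79886311 (plus) for Elane, chr11:90390918-90391167 (minus) for Hlf and chr11:19018970-19019219 (minus) for Meis1.
Mpo: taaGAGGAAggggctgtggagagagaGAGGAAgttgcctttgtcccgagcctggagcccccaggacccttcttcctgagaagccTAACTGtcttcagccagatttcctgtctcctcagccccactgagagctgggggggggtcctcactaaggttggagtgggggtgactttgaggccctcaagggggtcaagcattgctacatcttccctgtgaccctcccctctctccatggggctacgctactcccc
Elane: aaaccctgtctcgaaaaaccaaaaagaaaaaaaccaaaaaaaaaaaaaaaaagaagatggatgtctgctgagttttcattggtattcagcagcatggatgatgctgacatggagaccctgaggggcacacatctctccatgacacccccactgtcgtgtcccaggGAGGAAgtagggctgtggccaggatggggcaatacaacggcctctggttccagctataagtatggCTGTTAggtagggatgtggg
Hlf: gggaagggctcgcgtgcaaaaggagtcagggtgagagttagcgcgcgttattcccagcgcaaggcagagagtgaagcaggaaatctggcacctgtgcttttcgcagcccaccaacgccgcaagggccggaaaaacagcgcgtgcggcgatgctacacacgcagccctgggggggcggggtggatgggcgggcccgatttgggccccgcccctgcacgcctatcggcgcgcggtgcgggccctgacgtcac
Meis1: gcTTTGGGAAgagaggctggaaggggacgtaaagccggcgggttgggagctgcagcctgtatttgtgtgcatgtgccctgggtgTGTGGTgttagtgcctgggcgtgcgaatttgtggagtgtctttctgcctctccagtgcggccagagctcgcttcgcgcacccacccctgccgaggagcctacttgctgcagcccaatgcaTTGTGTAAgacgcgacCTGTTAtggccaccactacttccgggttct
The Mpo window held GAGGAA at 2 places and TAACTG at 1, the Elane window GAGGAA and the reverse complement CTGTTA of the MYB letters once each, the Meis1 window 2 C/EBP matches, 1 RUNX and 1 MYB match, and the Hlf window none of the 5. Such short words are common. Among RefSeq promoter windows of this length, 36.9% of all 27025 held the C/EBP letters, 23.1% PU.1, 14.2% RUNX, 10.3% GATA and 19.8% MYB. Among the 12006 genes tested that have a window the shares were 29.1%, 22.9%, 11.3%, 6.37% and 16.98%, and for genes at least 2-fold higher in LSK and in GMP the shares were 29.2% and 32.8% for C/EBP, 23.3% and 23.5% for PU.1 and 16.6% and 18.6% for MYB. A match is a description of letters and not a bound site.

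Surface proteins of stem cells had a median of 2.33, with 32 of 50 at least 2-fold higher in LSK and 5 at least 2-fold higher in GMP. Robo4, a guidance receptor that anchors stem cells in the marrow, read 37.4 and 31.2 CPM in LSK and 0.0738 and 0.0366 CPM in GMP (9.23, SE 0.58), and Esam, an adhesion molecule, 39.2 and 38.9 CPM against 0.11 and 0.28 CPM. The markers used to purify stem cells followed: Procr (EPCR) read 30.8 and 21.2 CPM against 0.53 and 0.98 CPM, Slamf1 (CD150) 8.79 and 10.9 CPM against 0.0246 and 0.110 CPM, and Tek, the angiopoietin receptor, 34.0 and 35.5 CPM against 1.43 and 2.33 CPM. No control libraries of the 2 populations overlapped for these 5 genes, as was so for 41.7% of all genes on the LSK side. Robo4 and Esam were picked by a rule that asked for no overlap. Robo4, Esam and Tek are also endothelial genes: 8 of 13 stromal and endothelial markers were at least 2-fold higher in LSK, their sum was 251 and 222 CPM in LSK against 164 and 199 CPM in GMP, Cdh5 stood at 0.49 and 0.23 CPM in LSK, Col3a1 alone had 0 reads in GMP, and their part was not tested.

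Other receptors of the list were abundant in LSK and remained measurable in GMP. Adgrg1, the adhesion receptor GPR56, read 1332 and 1149 CPM in LSK and 140 and 172 CPM in GMP (2.99, SE 0.16), and Adgrl4 1101 and 802 CPM against 196 and 166 CPM (2.39). Eng, a TGF-beta co-receptor, differed by 3.03, Calcrl, the adrenomedullin receptor, by 2.38, and Cd27 by 2.12. Abcg2, the transporter of the side population, differed by 0.68 only, and Itga6, Cd9 and Cd81 stayed between -0.19 and 0.50.

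The members that went the other way were Prom1, Itga1, Cd69, Bmpr1a and Cnr2. Prom1 (CD133), a stem cell marker in human marrow, read 10.3 and 6.88 CPM in LSK and 232 and 166 CPM in GMP (-4.53, SE 0.25, edgeR adjusted p = 5.68e-07). Gm42716, a gene on the same strand that the LSK table alone lists, lies within Prom1 and held 0.031 and 0.058 CPM there, so the population and the annotation cannot be told apart for Prom1. Itga1, a collagen receptor subunit, read 6.58 and 6.65 CPM against 35.2 and 77.9 CPM (-3.10), and Cd69 15.4 and 12.0 CPM against 40.3 and 44.1 CPM (-1.62). All 5 were also higher in GMP by sign in the knockout libraries, which stand in the same count tables.

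Lymphoid-primed surface proteins had the highest median of the receptor lists, 2.85, with 25 of 33 at least 2-fold higher in LSK. Flt3, the cytokine receptor of multipotent progenitors with lymphoid potential, had a high level in LSK: it read 525 and 402 CPM in LSK and 15.7 and 23.7 CPM in GMP (4.56, SE 0.37, edgeR adjusted p = 5.91e-06). Il7r, the receptor of lymphoid progenitors, read 11.6 and 11.6 CPM against 0 and 0.45 CPM, Il2rb 4.09 and 3.44 CPM against 0 and 0.11 CPM, and Ccr9, a thymus homing receptor, 7.13 and 3.03 CPM against 0.12 and 0.57 CPM. GMP-350 was the higher GMP library for each of these. Cd53 (-1.27) and Cd52 (-1.17) were higher in GMP. The B and T cell marker levels given with the lymphoid factors stand beside this list too, and their part was not tested.

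Myeloid surface proteins were higher in GMP, 29 of 65 at least 2-fold against 6 in LSK, with a median of -0.94. Ms4a3, a tetraspan protein of granulocyte-monocyte progenitors, read 81.4 and 72.3 CPM in LSK and 1893 and 1588 CPM in GMP (-4.50, SE 0.18, edgeR adjusted p = 8.30e-08). Ly6c2, a marker of the monocyte path, read 76.2 and 65.2 CPM against 1300 and 1314 CPM (-4.21, SE 0.12), and Clec12a, an inhibitory lectin, 72.5 and 77.3 CPM against 1023 and 1039 CPM (-3.78). Trem3 (-4.36) and Clec5a (-4.28) signal through the adaptor Tyrobp, which was itself higher in GMP (-2.53). Fcer1a, the IgE receptor chain of basophils and mast cells, read 5.01 and 5.75 CPM in LSK but 49.1 and 174 CPM in GMP-346 and GMP-350. Its size in GMP thus differed by library, as the sum of the mast cell, basophil and eosinophil genes did. Not every member of that list did so, since Hdc read 477 and 466 CPM in GMP-346 and GMP-350.

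The cytokine receptor genes Csf1r, Csf2rb, Ifngr1, Csf3r, Csf2ra and Il3ra differed less than the lectin genes Clec12a and Clec5a. Il1r1, given below, did not. Csf1r, the M-CSF receptor, read 32.4 and 47.5 CPM in LSK and 142 and 165 CPM in GMP (-1.94, SE 0.19). The shared beta chain Csf2rb differed by -1.52 and the interferon gamma receptor Ifngr1 by -1.65. Csf3r, the G-CSF receptor, already read 162 and 157 CPM in LSK and 246 and 217 CPM in GMP (-0.54, SE 0.17, edgeR adjusted p = 0.0186), and Csf2ra, the GM-CSF receptor alpha chain, had the same -0.54 at an adjusted p of 0.0489. Neither call held with total counts (-0.14 for Csf3r, adjusted p = 0.45, and -0.15 for Csf2ra, adjusted p = 0.62). Leaving out LSK-1326 ended both, leaving out LSK-1330 or GMP-346 ended that of Csf3r, and leaving out GMP-350 or any 1 of KO GMP-178, KO GMP-179 and the 3 KO LSK libraries ended that of Csf2ra. Il3ra was not called (0.44).

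Il1r1, Mertk, Ccr3, Cd33, Ptafr and Il17ra were the 6 members at least 2-fold higher in LSK. Il1r1, the interleukin-1 receptor, read 92.6 and 61.6 CPM in LSK and 4.02 and 3.05 CPM in GMP (4.45, SE 0.43). Il17ra read 244 and 238 CPM against 103 and 115 CPM (1.14). Cd33 (1.35) did not pass without LSK-1330 (1.05, adjusted p = 0.16) or without GMP-346 (1.14, adjusted p = 0.14).

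**Figure D3:**
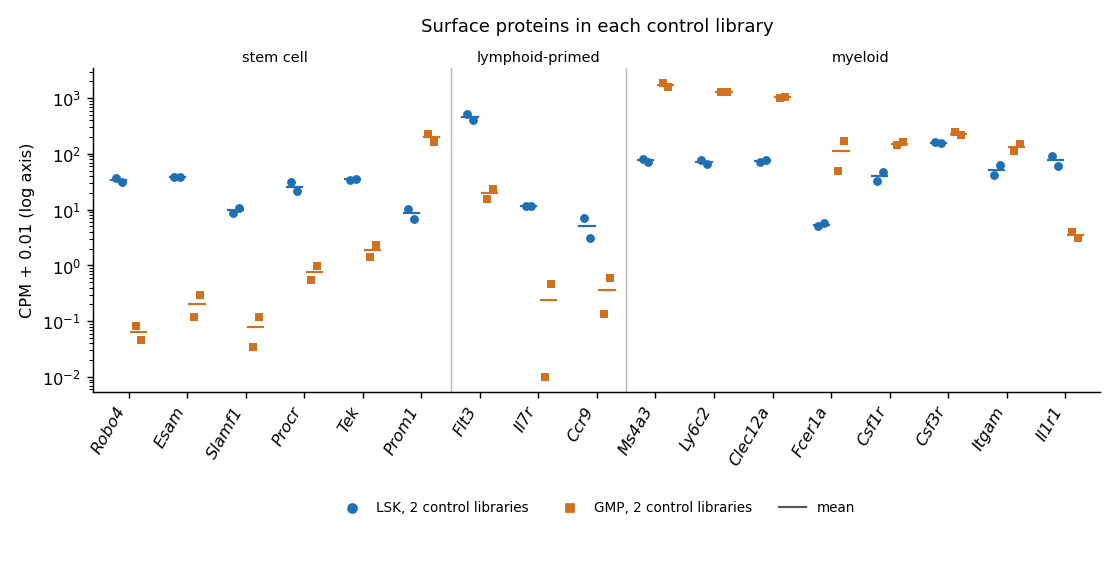
CPM plus 0.01 (vertical log axis) of 17 surface protein genes in the 2 LSK (blue circles) and 2 GMP (orange squares) control libraries, with a bar at each mean, grouped by list. Prom1 is the 1 stem cell gene shown that is higher in GMP and Il1r1 the 1 myeloid gene shown that is higher in LSK, while Csf3r differs little.

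Metabolic genes were mostly higher in GMP, and part of this went with gene length. Among 9203 protein-coding genes with a mean of at least 10 CPM, 9.65% were at least 2-fold higher in LSK and 12.9% in GMP, and their median was -0.25. The median was -0.75 for genes with under 1000 bases of exon, -0.63 from 1000 to 2000 bases and 0.01 above 10000 bases. The 71 respiratory chain genes at that level have a median exon length of 1718 bases. Each metabolic list was therefore also set against genes of its members' length classes, by subtracting the class median from each member. The respiratory chain then stood at -0.54 in place of -1.06, the citric acid cycle at -0.58 in place of -0.89, glycolysis at -0.72 in place of -1.04, the pentose phosphate pathway at -1.07 in place of -1.45, and the NADPH oxidase at -1.67 in place of -2.08. Fatty acid oxidation (-0.13), amino acid use (-0.14) and redox genes (-0.07) lay near genes of like length, and lipid synthesis turned to 0.25.

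**Figure D4:**
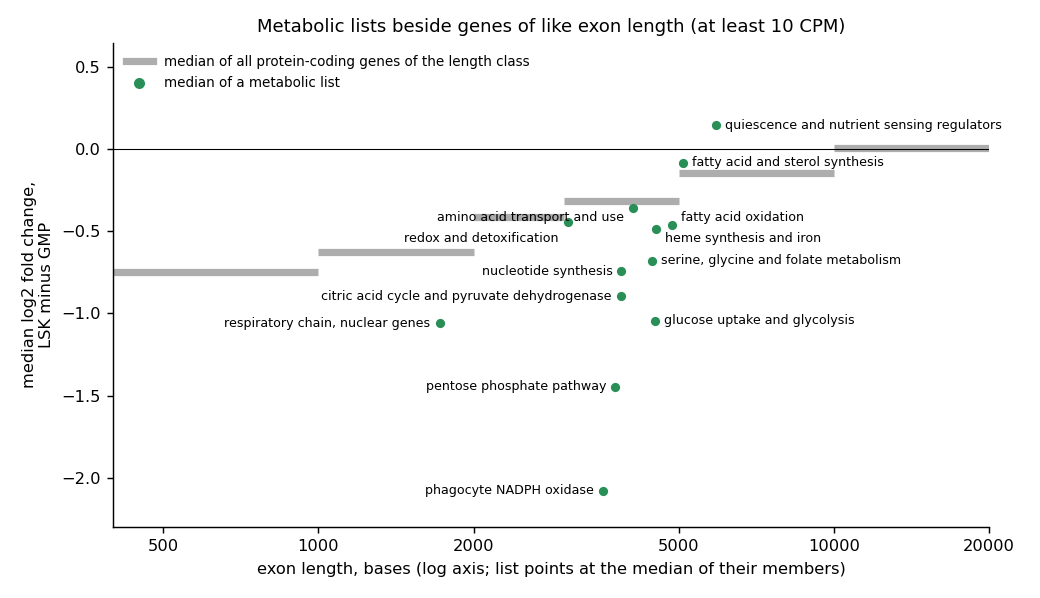
Median log2 fold change (LSK minus GMP, vertical axis) of protein-coding genes in 6 classes of exon length (grey bars, horizontal log axis in bases) and of 13 metabolic lists (green points at the median length of their members), all at a mean of at least 10 CPM. The class medians climb from -0.75 to 0.01, and the oxidase, pentose phosphate, glycolysis and respiratory chain lists lie below the bars of their length.

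Glucose use was split between isozymes. Of 33 genes, 15 were at least 2-fold higher in GMP and 6 in LSK, with a median of -0.68. Hexokinase 3, the myeloid isozyme (Hk3), read 156 and 183 CPM in LSK and 852 and 694 CPM in GMP (-2.19, SE 0.20, edgeR adjusted p = 1.13e-05), and Hk2 80.5 and 80.6 CPM against 204 and 195 CPM (-1.31). Hk1 went the other way at 344 and 374 CPM against 263 and 238 CPM (0.52, SE 0.10). Per kilobase of exon, Hk1 and Hk3 stood at 42.1 and 46.0 RPKM in LSK, and at 29.4 and 210 in GMP.

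Phosphofructokinase and aldolase showed the same pattern. The muscle form Pfkm read 77.6 and 76.7 CPM in LSK and 27.1 and 24.2 CPM in GMP (1.59, SE 0.10), the platelet form Pfkp 70.0 and 73.0 CPM against 228 and 196 CPM (-1.57, SE 0.16), and the liver form Pfkl was not called (0.02, SE 0.27). Aldoc was higher in LSK, 15.1 and 9.92 CPM against 0.55 and 2.20 CPM (3.18), and the far more abundant Aldoa higher in GMP, 360 and 338 CPM against 1120 and 906 CPM (-1.54). Pdk2, a kinase that holds pyruvate back from the citric acid cycle, was higher in LSK with 15.1 and 10.8 CPM against 0.98 and 1.06 CPM (3.66, SE 0.31), while Pdk1, at 204 and 165 CPM in LSK, was not called (0.01, SE 0.14). Of the glucose transporters, Slc2a3 (GLUT3) was higher in LSK, 116 and 102 CPM against 23.1 and 31.4 CPM (2.0, SE 0.24), and Slc2a1 (GLUT1) was not called (0.18, SE 0.21), though with total counts it passed (0.57, adjusted p = 0.0231). Other steps were higher in GMP, with the isomerase Gpi1 at -1.77, Pgam1 at -2.32, Pkm at -1.52 and Ldha at -1.04.

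The pentose phosphate pathway, which supplies NADPH and ribose, and the phagocyte NADPH oxidase, which uses NADPH to make superoxide, were higher in GMP. In the pathway 7 of 10 genes were at least 2-fold higher in GMP and 0 in LSK. Its 2 NADPH-forming enzymes stood far apart between the populations: Pgd read 73.5 and 71.3 CPM in LSK and 374 and 311 CPM in GMP (-2.24, SE 0.16), and G6pdx 79.2 and 75.0 CPM against 286 and 303 CPM (-1.93, SE 0.10). Of the oxidase genes 6 of 7 were at least 2-fold higher in GMP. Cybb, the catalytic subunit, read 31.8 and 26.6 CPM in LSK and 159 and 232 CPM in GMP (-2.74, SE 0.22), and Hvcn1, the proton channel that balances its charge, 10.1 and 6.83 CPM against 205 and 196 CPM (-4.57, SE 0.22). Rac2, at -0.87, was called without reaching 2-fold.

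Mitochondrial genes encoded in the nucleus were higher in GMP by small steps. Of 73 respiratory chain genes 41 were at least 2-fold higher in GMP, 67 were called higher at any size, and 0 were called higher in LSK. Cycs, cytochrome c, read 34.1 and 37.5 CPM in LSK and 156 and 138 CPM in GMP (-2.04, SE 0.17), Cox5a differed by -2.07 and Ndufb6 by -2.08, while Atp5d (0.47) and Cox7a2l (0.17) were not called. The length classes given above touch this list most, since it is made of short genes. In the citric acid cycle 25 of 29 genes were called higher in GMP, 9 of them at least 2-fold. Idh1, the cytosolic NADP enzyme, read 55.5 and 55.2 CPM against 320 and 295 CPM (-2.47, SE 0.13) and Mpc1, a subunit of the pyruvate carrier, 6.15 and 5.25 CPM against 38.1 and 34.4 CPM (-2.67, SE 0.17), whereas citrate synthase (Cs) differed by -0.75. Ppargc1a, the coactivator of mitochondrial biogenesis, was on the LSK side at a low level, 4.46 and 1.72 CPM against 0 and 0.12 CPM.

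Lipid genes went in both directions. Of 27 fatty acid oxidation genes 14 were called higher in GMP and 4 in LSK at any size, 7 and 3 of them at least 2-fold, and Cpt1a, the entry step, read 256 and 203 CPM in LSK and 200 and 204 CPM in GMP (0.18, SE 0.13, not called), though it passed with total counts (0.57, adjusted p = 0.00238). Of 31 genes of fatty acid and sterol synthesis 9 were called higher in GMP and 8 in LSK at any size, with a median of -0.08. At least 2-fold higher were 4 in LSK (12.9%) and 2 in GMP (6.45%), below the shares of all genes (21.2% and 10.9%). The desaturases Scd1, 8.08 and 6.24 CPM against 0.11 and 0.46 CPM (4.63), and Fads2, 60.6 and 59.5 CPM against 11.1 and 13.9 CPM (2.26), and the regulator Srebf2 (1.41) were higher in LSK. Fdps, farnesyl diphosphate synthase, read 2.24 and 2.65 CPM in LSK and 163 and 133 CPM in GMP (-5.91, SE 0.22), but a gene on the same strand, Gm43738, spans most of it, is listed in the LSK table alone and holds 0.03 and 0 CPM there, so for Fdps the populations and the annotations cannot be told apart. Fdps lies at chr3:89093588-89101959 and Gm43738 at chr3:89081939-89101099 on GRCm38.

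Genes of growth were modestly higher in GMP. Of 27 nucleotide synthesis genes 8 were at least 2-fold higher in GMP and 0 in LSK, among them Rrm2, a subunit of ribonucleotide reductase, at 107 and 98.0 CPM against 247 and 234 CPM (-1.23, SE 0.12). The most extreme member, Nme2 (-6.20), and its neighbour Nme1 (-2.29) are both overlapped on their strand by the read-through gene Gm20390 in both tables, and the GMP table sets reads that are ambiguous between genes apart, so these 2 are uncertain. Of 21 serine, glycine and folate genes 5 were at least 2-fold higher in GMP, led by Mthfd2, 20.7 and 21.0 CPM against 63.3 and 51.8 CPM (-1.46, SE 0.46), which did not pass when LSK-1326, LSK-1330 or GMP-346 was left out (adjusted p of 0.0872, 0.0873 and 0.0792). Aldh1l1, which consumes formyl folate, was higher in LSK, 33.0 and 29.8 CPM against 6.16 and 5.37 CPM (2.44, SE 0.18). Amino acid transport and use had 2 of 27 genes (7.41%) in each direction, below the shares of all genes (21.2% and 10.9%). Glul, glutamine synthetase, was among those higher in LSK (1.09).

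Heme and redox genes held single large differences. Alas1, the first enzyme of heme synthesis outside the erythroid lineage, read 106 and 108 CPM in LSK and 1042 and 811 CPM in GMP (-3.12, SE 0.16, edgeR adjusted p = 3.12e-07), and Tfrc, the transferrin receptor that brings iron into the cell, differed by -2.09 (SE 0.20). Hmox1, which breaks heme down, was higher in LSK at a low level (2.10). Among 35 redox genes 8 were at least 2-fold higher in GMP and 5 in LSK. Gsr, glutathione reductase, read 121 and 99.7 CPM in LSK and 941 and 849 CPM in GMP (-3.02, SE 0.17). Aldh1a1, the aldehyde dehydrogenase used to stain stem cells, read 63.8 and 61.1 CPM in LSK and 2.63 and 6.23 CPM in GMP (3.82, SE 0.37), and Nqo1 (2.34) and Txnip (1.58) were higher in LSK as well.

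**Figure D5:**
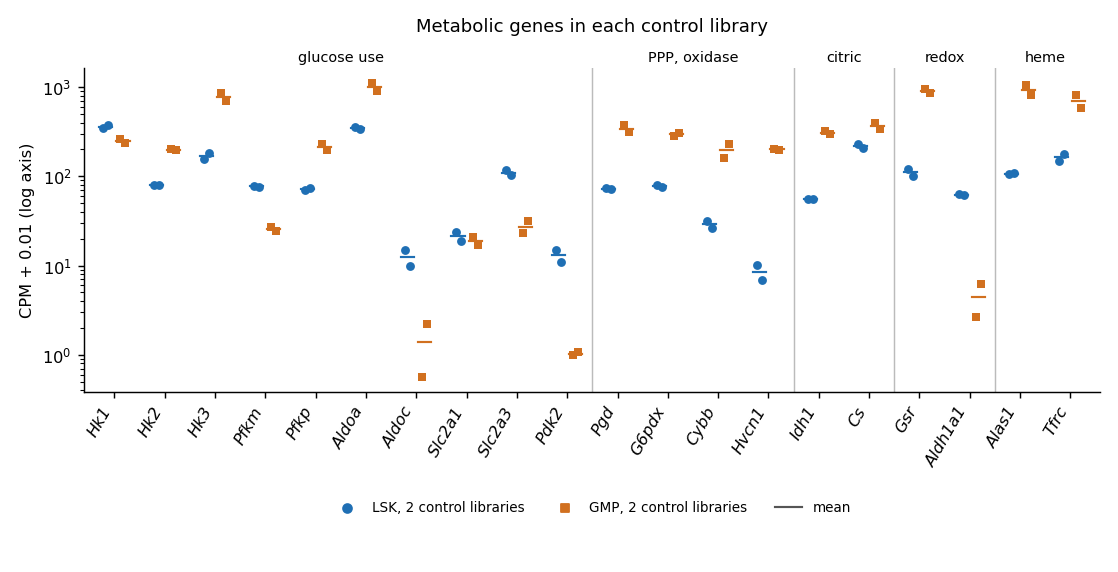
CPM plus 0.01 (vertical log axis) of 20 metabolic genes in the 2 LSK (blue circles) and 2 GMP (orange squares) control libraries, with a bar at each mean, in blocks for glucose use, pentose phosphate pathway (PPP) and oxidase, citric acid cycle, redox and heme. Hk1, Pfkm, Aldoc, Slc2a3, Pdk2 and Aldh1a1 are higher in LSK and their neighbours Hk2, Hk3, Pfkp and Aldoa higher in GMP.

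Regulators of quiescence and nutrient sensing had a median of 0.20, close to the 0.12 of all genes. Of 25 tested, 5 (20%) were at least 2-fold higher in LSK, about the share of all genes (21.2%). Cdkn1c (p57), a cell cycle inhibitor of stem cells, read 7.07 and 5.72 CPM against 0.11 and 0.54 CPM (4.29, SE 0.73). The others were the AMPK subunit Prkaa2 (3.73), Epas1 (2.73), Ddit4, an inhibitor of mTORC1 (2.57), and Sesn1 (1.33). Hif1a, the alpha subunit of an oxygen-regulated transcription factor, was the 1 member at least 2-fold higher in GMP, 84.9 and 79.1 CPM against 204 and 171 CPM (-1.19, SE 0.11). Mtor, Prkaa1, Stk11 and Sirt1 were not called.

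Over all genes, the 8 protein-coding genes with the largest called difference in each direction were taken by a rule that asked for libraries that do not overlap, a mean of 1 CPM or more and at least 4 reads in the lower population, which leaves out Nkx2-3 with its 0 reads in GMP. On the LSK side they were Mn1, Robo4, Pgr, Ccdc166, Dntt, Tox, Cfap43 and Prex2. Mn1 is overlapped on its strand by Gm43119, listed in the LSK table alone, and Cfap43 by Itprip in the reference annotation, an ID in neither table, and on the opposite strand by Gsto1 at 101 and 95.8 CPM in LSK and 206 and 179.1 CPM in GMP, so these 2 carry the same limit. Mn1, a transcriptional cofactor found in leukaemia fusions, read 44.9 and 31.1 CPM in LSK and 0.0615 and 0.0611 CPM in GMP (9.23, SE 0.32), and Dntt, the terminal transferase of lymphoid progenitors, 412 and 361 CPM against 0.15 and 1.98 CPM (8.50, SE 1.2). Pgr, the progesterone receptor, read 1.97 CPM in LSK-1326, the library with Y-linked reads, and 46.0 CPM in LSK-1330, the library with Xist reads; whether sex has a part in it was not tested. On the GMP side they were Taf9, Xntrpc, Schip1, S100a4, Gbp2b, Nme2, Ces1d and Prg2. With limma-voom, Pgr (7.48, limma-voom adjusted p = 0.084) and S100a4 (-5.94, limma-voom adjusted p = 0.105) did not pass. Xntrpc, Schip1 and S100a4 are overlapped on their strand by genes listed in the LSK table alone, so for them the population and the annotation cannot be told apart. Taf9 and Nme2 are overlapped on their strand by Ak6 and Gm20390, listed in both tables, so they are uncertain as given for Nme2 above. Prg2, eosinophil major basic protein, read 11.7 and 19.2 CPM in LSK and 488 and 1455 CPM in GMP (-5.97, SE 0.58).

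The 3 KO libraries of each population were fitted in the same model and share no library with the controls. They stand in the same count tables as the controls, so annotation and depth went with the population there too. A like sign therefore cannot tell population and annotation apart. The KO libraries gave the same sign for 5896 of the 5968 genes called at least 2-fold in controls. Among list members with such a call the sign was the same for 72 of 72 transcription factors, 98 of 99 surface proteins and 144 of 144 metabolic genes. The exception was Cd33, which stood at 1.35 in controls and -0.35 in KO, where the LSK libraries read 11.4, 6.85 and 9.68 CPM and the GMP libraries 12.2, 17.8 and 5.65 CPM. For KO GMP-352 the labels conflict: its title and cell type give GMP, and its description names the LSK tables; its column stands in the GMP table. The size of the population difference itself changed with genotype in 5 genes at an adjusted p under 0.05 (0.0269% of those tested; 1890 at an unadjusted p under 0.05), and of the transcription factors, surface proteins and metabolic genes listed here 0 were among them. That count moved with single libraries: it was 516 without KO GMP-352, 15 without KO GMP-179, 3 without KO GMP-178 or KO LSK-1333, and 1 without LSK-1326, LSK-1330, KO LSK-1334 or GMP-346.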

How the data were processed

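RNA of sorted bone marrow LSK cells and GMP was sequenced as stranded total RNA after ribosomal RNA removal, per the labels' protocols. The authors deposited 1 table of raw read counts per gene for each population, of 5 libraries each; the submitters' processing notes name STAR, HTSeq 0.5.3p3, DESeq 1.18.0, DESeq2 1.4.5 and mm10, while neither the annotation release nor how strand was used is given in the sources used here. The tables list 45513 (LSK) and 38924 (GMP) IDs, 38086 of them in both. IDs with 0 reads in all 5 libraries of 1 table alone (2823 for LSK, 1284 for GMP) were left out, as were 11518 IDs with no read in either table. Lines of the GMP table that name no gene (no feature 8.50% and 14.2%, not unique 29.0% and 26.4%, ambiguous 1.32% and 1.24% of all lines in GMP-346 and GMP-350) stayed out of library sizes.

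The 10 libraries were fitted together with 1 mean per group by edgeR 4.0.16 (R 4.3.3): TMM factors, filterByExpr with a minimum count of 10, and the two-sided quasi-likelihood test of CTRL LSK minus CTRL GMP with 6 residual degrees of freedom, Benjamini-Hochberg adjusted over 18573 genes. Limma 3.58.1 and DESeq2 1.42.0 served as alternatives. SE was taken as |log2 fold change| over the root of the F statistic. CPM use TMM library sizes. Levels per kilobase use exon lengths of GENCODE vM21 (GRCm38). On simulated counts for these genes, 45.8% of 96 genes changed by a log2 of 1 and 57.3% of 96 changed by 2 were called in the right direction, and 6 of 17574 unchanged genes were called. Far fewer genes were changed there than the 54.9% called in the data. The Benjamini-Hochberg adjustment was therefore stricter in the simulation, and these shares do not measure the power of the real test.

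The members and lists were chosen with earlier results of these data known. Any list member could be named; values per library were due for up to 3 members per list and direction with the largest called fold, no overlap and a mean of 1 CPM or more, and for a fixed set of anchor genes. Other genes with values, and the promoters and motif letters, were chosen after their values were seen. Some genes of the lists are counted but not reported here by name.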

Additional observations from a re-analysis of the deposited data

Results flagged for a closer look

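Hdc, histidine decarboxylase of mast cells and basophils, had a population difference that differed between genotypes by 0.98 on the log2 scale (KO minus CTRL, SE 0.11, edgeR adjusted p = 0.014). It read 21.4 and 20.9 CPM in control LSK, 477 and 466 CPM in control GMP, and 227, 233 and 229 CPM in KO GMP, while KO LSK stayed at 19.4, 20.6 and 20.7 CPM. The adjusted p rose above the threshold, at differences of 0.94 to 0.99, without LSK-1326 (adjusted p = 0.15), LSK-1330 (0.17), KO LSK-1333 (0.0664), KO LSK-1334 (0.11), GMP-346 (0.0545) or KO GMP-178 (0.0602).

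Reads also lay in genes outside the comparison. In control GMP, 36 genes with a mean of at least 1 CPM had 0 reads in all 5 LSK libraries, the mitochondrially encoded genes among them, and in control LSK 30 genes at that level had 0 reads in all 5 GMP libraries.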

How the results depend on the processing

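With total counts, 2892 genes were higher in GMP and 1152 at least 2-fold, and with a mean of at least 1 CPM 1336 were at least 2-fold higher in GMP. Over the 7726 genes with no overlapping gene, 2314 were higher in LSK and 2129 in GMP, 1718 and 834 at least 2-fold. Tested against a fold of 2 (glmTreat), 2470 and 1077 passed. Leaving out 1 library gave 3902 to 5320 genes higher in LSK and 3921 to 5137 in GMP, 3032 to 4031 and 1687 to 2194 of them at least 2-fold, and 1 to 516 genes whose difference changed with genotype. Chosen after seeing the data were the alternatives for that count, the like-length medians, and the limits to genes overlapping no gene of 1 table alone and to 4566 genes with an unchanged version number (840 and 838 called, 784 and 581 at least 2-fold; fewer genes were tested).

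Under some setting, 59 of 70 list counts and 33 of 35 list medians moved, so the counts of members given above depend on the processing. List medians changed sign in 8 of 35 lists. With total counts the medians were 0.061 for amino acid use, 0.31 for fatty acid and sterol synthesis, 0.072 for fatty acid oxidation and 0.0038 for redox genes; lipid synthesis stood at 0.13 with upper quartile factors and 0.25 against like length. All surface proteins with no overlapping gene had -0.066. With an unchanged version, erythroid and megakaryocyte factors (1 gene) had -0.089, monocyte genes (3) 5.00 and secondary granule genes (4) 1.62; the latter had 1.4 without GMP-350 and -1.89 without GMP-346, its range over the libraries left out. T and NK cell, dendritic cell, oxidase and sort gate genes had no member with an unchanged version and so no value. The cause was not tested. Of 180 single genes, 26 lost their call under some setting, 2 gained one and Nfe2l2 reversed (0.076, total counts). No paired analysis was possible because the groups share no replicate numbers. A gene under 3 counts in a group is below what this depth can compare.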
